A study of Homo sapiens with 16 samples.

Results

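MITF, the transcription factor that governs melanocyte identity, is a basic helix-loop-helix leucine zipper protein. It binds E-boxes, above all CACGTG and CATGTG, as a dimer. Its relatives TFEB and TFE3 read the same letters and are known for switching on lysosome and autophagy genes. MAFG is a small MAF protein without an activation domain of its own, which binds antioxidant-type elements together with partners such as NRF2 or the BACH proteins. H3K4me3 is a histone mark found around active transcription start sites.

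The regions described here are MITF-bound promoters that carried no MAFG peak. They were taken from peak lists of CUT&RUN, a method in which an antibody directs a nuclease to its target in permeabilised cells and the released fragments are sequenced. The cells were WM164, a human melanoma line, made to overexpress GFP, the control protein, or MAFG, and about 250000 cells were used per sample. Anti-MITF and anti-MAFG were each profiled in 3 libraries per line and anti-H3K4me3 in 1, and the 2 IgG samples were not analysed here. The labels do not say whether libraries of a group came from separate cultures, so p-values measure the spread between libraries, which may be technical.

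Overlapping peaks of the 6 anti-MITF and anti-MAFG lists of GFP cells merged into 43562 regions. A region was kept when it held a peak in at least 2 of 3 anti-MITF libraries, a peak in 0 of 3 anti-MAFG libraries, and overlapped an H3K4me3 peak of the same cells. This left 2296 regions, 5.27% of all, and 1244 of them were called in 3 of 3 anti-MITF libraries. The regions were thus chosen by the GFP-cell calls of all 3 antibodies, so GFP-cell values are given as a description and are not tested. They enter later comparisons of MAFG-cell calls where regions are grouped by their GFP-cell rank. The regions are compared with 3838 co-bound promoter regions, which held both factors in at least 2 of 3 libraries and the mark, and with 1989 distal regions, which met the same factor rule but lacked the mark.

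Libraries of the 2 lines differed widely in peak number. Anti-MITF lists held 19828 to 20117 peaks in GFP cells and 2116 to 2495 in MAFG cells, and anti-MAFG lists held 14879 to 26221 and 1836 to 2818. The weakest anti-MITF peak had a −log10 p of 4.28 to 4.29 in GFP-cell lists and of 5.20 to 5.31 in MAFG-cell lists. The anti-MITF lists of both lines ended at almost the same −log10 q. Their lowest fold enrichment, a ratio of signal to background, was 2.63 to 2.81 in GFP-cell and 2.19 to 2.77 in MAFG-cell lists. MAFG-cell lists thus ended at a higher −log10 p than GFP-cell lists, at almost the same −log10 q. A peak of the same p could be listed in GFP cells and not in MAFG cells. How many calls this affected was not tested. Read totals are not in the lists, and the depth is unknown. A call missing in MAFG cells, fewer bound cells and a less sensitive library cannot be told apart. At gene starts, 5 of 8 melanocyte lineage markers carried an H3K4me3 peak in both lines (MITF, SOX10, PMEL, TYR and S100B), MLANA, TYRP1 and DCT carried none, and of 16 markers of keratinocytes, fibroblasts, endothelium and immune cells PDGFRA alone had one, in GFP cells.

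The sequences below show the E-box upstream of 8 genes whose start lies in such a region: lysosomal and organelle genes (SPNS1, BLOC1S3, HPS5, GAA, CTSF and CTSD) and known MITF targets in cell cycle and survival (CDK4 and BIRC7). They are RefSeq sequence of GRCh38.p14, 80 bases on the gene's own strand, outside every RefSeq gene, with CACGTG in capitals. A T before or an A after the E-box, the flank that MITF and its relatives prefer, is present in all but CTSF and BIRC7. The E-boxes lie 93.5 to 437.5 bp from the median anti-MITF summit, and that of CDK4 lies just outside its merged region.
SPNS1, chr16:28974689-28974768, plus strand: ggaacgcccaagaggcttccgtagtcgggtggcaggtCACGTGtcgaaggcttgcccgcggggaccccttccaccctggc
BLOC1S3, chr19:45178660-45178739, plus strand: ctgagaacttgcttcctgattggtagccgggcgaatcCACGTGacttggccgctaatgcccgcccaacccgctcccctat
HPS5, chr11:18322213-18322292, minus strand: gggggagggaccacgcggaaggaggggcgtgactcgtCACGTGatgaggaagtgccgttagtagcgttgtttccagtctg
GAA, chr17:80101468-80101547, plus strand: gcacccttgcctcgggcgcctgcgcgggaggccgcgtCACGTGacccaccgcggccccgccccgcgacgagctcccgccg
CTSF, chr11:66568615-66568694, minus strand: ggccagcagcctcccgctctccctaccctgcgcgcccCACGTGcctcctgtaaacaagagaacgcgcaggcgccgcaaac
CTSD, chr11:1763932-1764011, minus strand: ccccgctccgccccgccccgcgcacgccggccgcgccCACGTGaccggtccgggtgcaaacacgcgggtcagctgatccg
CDK4, chr12:57752369-57752448, minus strand: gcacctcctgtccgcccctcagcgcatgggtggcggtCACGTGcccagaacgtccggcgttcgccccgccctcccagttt
BIRC7, chr20:63235776-63235855, plus strand: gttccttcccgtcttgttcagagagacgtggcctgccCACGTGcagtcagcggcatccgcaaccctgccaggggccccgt

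In their anti-MITF signal the regions were moderate. The median of their mean fold enrichment, the authors' linear ratio of signal to background at a peak, was 6.13 (interquartile range 5.27 to 7.45), against 7.27 in co-bound promoters and 6.08 in distal regions. Regions called in 3 of 3 libraries had a median of 6.87 and those called in 2 of 3 a median of 5.54. The separate anti-MITF libraries of GFP cells listed 1973, 1946 and 1917 of the 2296 regions, with median folds of 6.46, 5.99 and 6.23, so no library stood apart. The mean percentile of the fold within each library (100 for the highest peak, 0 where none was called) had a median of 37.6, against 57.6 in co-bound and 34.2 in distal regions.

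Just outside the rule lay 2261 marked regions called in 1 of 3 anti-MITF libraries without MAFG, with a median fold of 5.04, and 1272 with anti-MITF in at least 2 libraries and anti-MAFG in 1, with a median anti-MITF fold of 6.57 and an anti-MAFG fold of 5.30. Inside it, the nearest GFP-cell anti-MAFG peak was at a median distance of 22839 bp (interquartile range 5540 to 56703), and 216 regions (9.41%) had one within 1000 bp. The regions were narrower than co-bound ones, with median merged widths of 1011.5 and 1623 bp, a measure that grows with the number of peaks merged.

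The 10 regions with the best mean anti-MITF rank in GFP cells included starts of genes of the lysosome surface and of organelle traffic. KLHL22, a substrate adaptor of a cullin ubiquitin ligase, led with folds of 22.2, 20.0 and 20.2 in the 3 GFP-cell libraries (chr22:20495210-20496881). SPNS1, a lysosomal lipid transporter, had 21.9, 17.8 and 21.7 (chr16:28973841-28975678), and ITFG2, a subunit of the KICSTOR complex that holds nutrient sensing at the lysosome, had 21.2, 19.7 and 18.3. LAMTOR1, the anchor of the Ragulator complex on lysosomes, had 17.3, 19.8 and 17.6 (chr11:72101935-72104641). In each of these the 3 libraries were close to one another.

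Others in this leading group were starts shared by 2 genes. BLOC1S3 and TRAPPC6A, a subunit of a complex that builds lysosome-related organelles such as melanosomes and a subunit of a tethering complex, shared a region with folds of 16.6, 17.0 and 19.4 (chr19:45177718-45179386). GTF2H1, a subunit of the general factor TFIIH, and HPS5, another lysosome-related organelle gene, shared one with 14.3, 19.5 and 17.2. POLR1B, a large subunit of RNA polymerase I, had 16.8, 21.9 and 19.5, SYS1, a Golgi membrane protein, 20.5, 16.2 and 14.7, and TIMM50, a subunit of the mitochondrial inner-membrane import channel, 15.5, 15.96 and 15.9. The remaining region of the 10 lay 11131 bp from the nearest coding start, that of NANOS3, with folds of 15.7, 18.7 and 16.2.

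In MAFG cells the leading regions divided. KLHL22 (7.23, 5.05 and 4.31), SPNS1 (14.4, 11.9 and 9.59), ITFG2 (6.71, 7.34 and 6.04), POLR1B (6.36, 6.36 and 6.88), LAMTOR1 (6.30, 11.97 and 13.7) and the region near NANOS3 (9.03, 8.13 and 5.33) had an anti-MITF peak in 3 of 3 libraries. TIMM50 had one in 1 library, with a fold of 5.50, and the BLOC1S3, SYS1 and GTF2H1 regions had none. Folds are relative to each list's own background and are not compared between the lines.

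**Figure D1:**
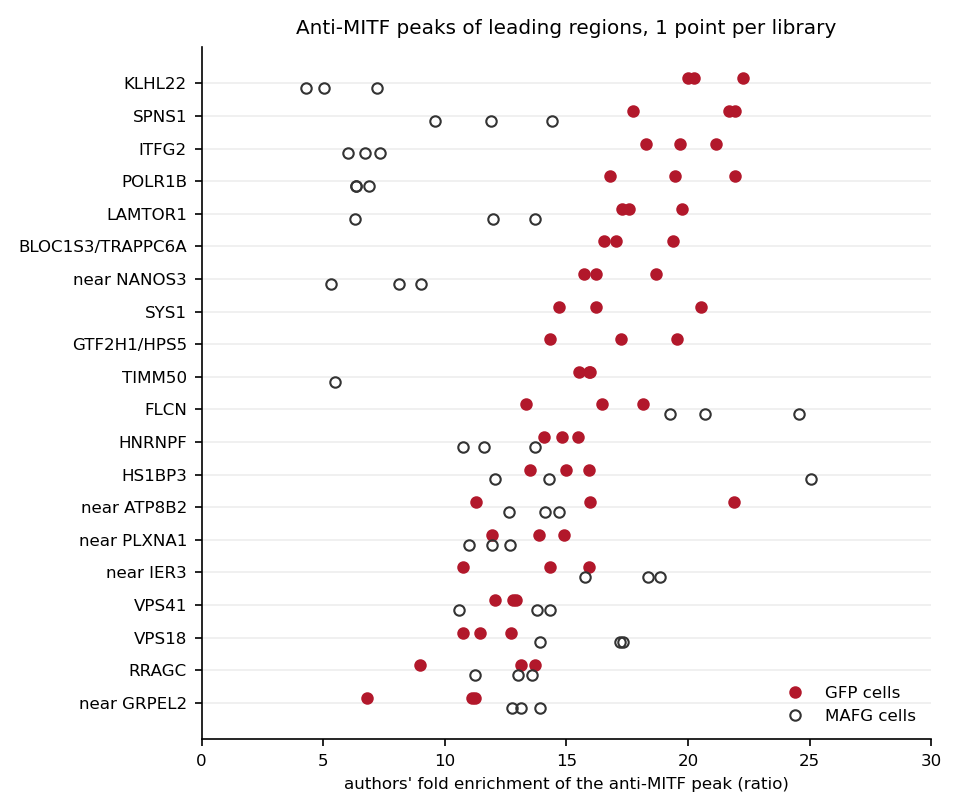
Fold enrichment (authors' linear ratio, x axis) of the anti-MITF peak in each library for the 10 regions that led in GFP cells (KLHL22 to TIMM50) and the 10 that led in MAFG cells (FLCN to the region near GRPEL2), with GFP-cell libraries as filled and MAFG-cell libraries as open circles. No open circle means no peak was called, as at BLOC1S3/TRAPPC6A, SYS1 and GTF2H1/HPS5.

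The 10 regions with the best anti-MITF rank in MAFG cells again included lysosomal nutrient sensing. FLCN, folliculin, which acts on Rag GTPases, had folds of 19.2, 20.7 and 24.6 in MAFG cells and 18.1, 13.4 and 16.4 in GFP cells (chr17:17235329-17238571). RRAGC, one of those Rag GTPases, had 13, 11.3 and 13.6 in MAFG cells and 13.1, 8.98 and 13.7 in GFP cells. VPS41 (14.3, 10.6 and 13.8 in MAFG cells) and VPS18 (13.9, 17.2 and 17.3) encode subunits of the HOPS complex, which tethers vesicles to lysosomes. All of these were called in 3 of 3 libraries of both lines.

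The rest of that group were HNRNPF, an RNA-binding splicing regulator (13.7, 11.6 and 10.7), HS1BP3 (12.1, 25.1 and 14.3) and regions without a coding start inside: one within ATP8B2 (14.7, 14.1 and 12.6), one within CHCHD6 (11.96, 10.99 and 12.7), one 25109 bp from IER3 (18.8, 15.7 and 18.3) and one 304 bp from the start of GRPEL2, a mitochondrial import cochaperone (13.2, 12.7 and 13.9). At HS1BP3 replicate 2 stood well above the other libraries. The regions within ATP8B2 and near IER3 had no H3K4me3 peak in MAFG cells.

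Across all 2296 regions, an anti-MITF peak was called in MAFG cells in 243, 207 and 234, or 10.6, 9.02 and 10.2% (9.93 ± 0.816%, SD, n = 3). In at least 2 of 3 libraries it was 200 regions, 8.71%, against a background of 11.3% over all 17354 GFP-cell anti-MITF regions. The share was thus no higher than the background. Among the regions listed, the median fold in MAFG cells was 6.87, 6.95 and 6.63.

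Anti-MAFG peaks were rare at these regions in cells that overexpress MAFG. They were called in 4, 8 and 9 regions, or 0.174, 0.348 and 0.392% (0.305 ± 0.115%, SD, n = 3), and in at least 2 of 3 libraries in 4 regions (0.174%), against a background of 5.13% over all anti-MITF regions and 3.35% over the 7406 of them that carried H3K4me3. In co-bound promoters the anti-MAFG share was 6.93 ± 1.02%. The difference, members minus co-bound, was −6.63 percentage points (−7.71 to −5.90 in the 3 libraries), and within the members the anti-MITF share was above the anti-MAFG share by 9.63 points. Members were chosen for anti-MITF peaks without anti-MAFG peaks in GFP cells, and co-bound regions for both, so the direction of these differences is tied to the choice of regions and they are given as a description.

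The 4 regions with anti-MAFG in at least 2 MAFG-cell libraries can be named. One lies 4077 bp from the start of FTH1, the ferritin heavy chain (chr11:61971081-61973342). It was called in 3 of 3 MAFG-cell anti-MAFG libraries with folds of 10.9, 5.76 and 8.71, and in all 6 anti-MITF libraries, with 13.1, 10.4 and 12.2 in those of GFP cells and with 12.3, 7.50 and 9.49 in those of MAFG cells. Its H3K4me3 peak was weak in GFP cells, with a fold of 3.93, and not called in MAFG cells. The start of BAIAP2, an actin-scaffold gene, had anti-MAFG folds of 5.04 and 6.04 in replicates 1 and 3, a region in ACAP3 had 5.64 and 5.33 in replicates 1 and 2, and one in the uncharacterised LOC124900418 had 7.33 and 6.85 in replicates 2 and 3.

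Members had a lower anti-MITF call share than co-bound promoters in MAFG cells, a gap that depended on the settings, and they also ranked lower in GFP cells. The co-bound share was 14.8, 13.3 and 14.1%, a difference, members minus co-bound, of −4.14 points (−4.30 to −3.90 in the 3 libraries, exact sign-flip test, two-sided p = 0.25, the smallest that 3 libraries allow). With equal peak numbers per library the difference was −0.0131 (p = 1), and among peaks whose −log10 q reached 5 it was −0.145 (p = 0.75, exact sign-flip tests). Without GFP-cell anti-MITF replicate 1 the difference was −2.51. When regions were cut into 5 groups of GFP-cell anti-MITF rank and compared within a group, the direction turned, and members were 1.36 points higher (1.03 to 1.55, exact sign-flip test, p = 0.25). Against distal regions, at 9.0 ± 1.13%, the members were 0.931 points higher (exact sign-flip test, p = 0.25), and within rank groups the difference was −0.209 points (p = 0.5, by the same exact test).

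Rank in GFP cells went with the call in MAFG cells. From the lowest to the highest of the 5 rank groups, the share of members with an anti-MITF peak in MAFG cells was 3.05, 2.91, 4.78, 9.80 and 29.1%. Co-bound promoters gave 1.64, 3.06, 4.18, 7.61 and 26.3% in the same groups, and distal regions 3.01, 3.43, 4.85, 10.9 and 28.5%. In all 3 classes the highest rank group stood well above the others.

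**Figure D2:**
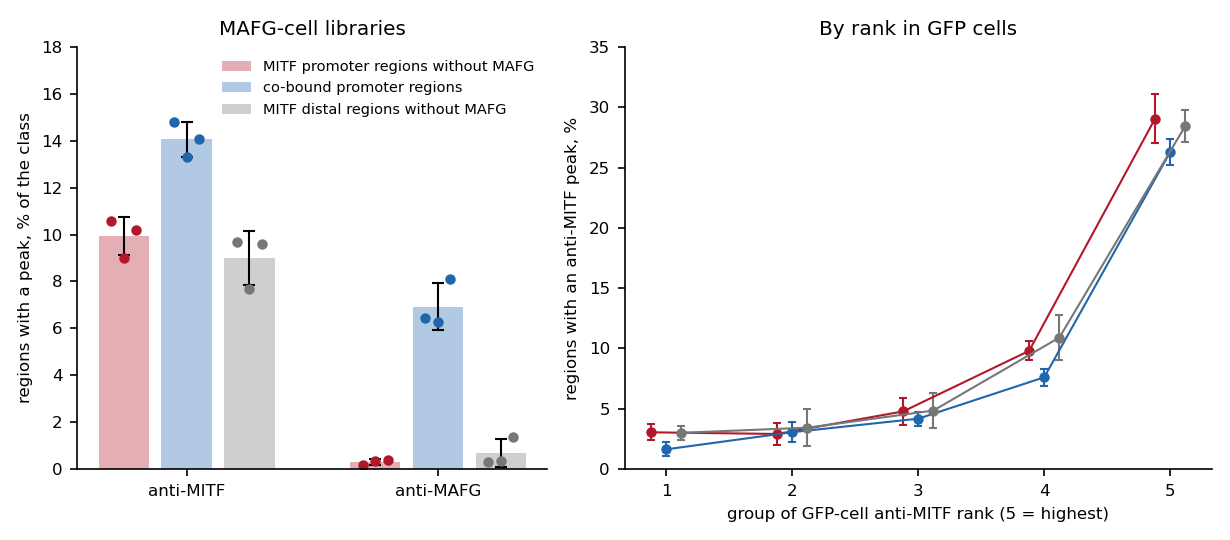
Share of regions (y axes, %) with a peak in MAFG-cell libraries. Left, by class and antibody, with points for libraries and bars and whiskers for mean and SD (n = 3); right, anti-MITF by GFP-cell rank group in the colours of the left panel, mean and SD. Members were lower than co-bound promoters on the left (9.93 against 14.1% for anti-MITF, 0.305 against 6.93% for anti-MAFG), and on the right the 3 classes rise to between 26.3 and 29.1% in the highest group.

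The H3K4me3 peaks at these regions were strong. Their median fold was 42.4 (interquartile range 24.4 to 63.9) in GFP cells, against 33.6 (15.02 to 54.2) in co-bound promoters and 28.3 over all 13579 H3K4me3 peaks, of which 2173 (16%) held a member. In MAFG cells the mark was called at 2016 members, 87.8% (exact binomial interval 86.4 to 89.1%, counting error only), beside a background of 80.0% over all GFP-cell H3K4me3 peaks and 80.4% of co-bound promoters. The 80.0% counts whole H3K4me3 peaks and the other shares count regions, and none was matched for the strength of the mark. Each line had 1 H3K4me3 library, so these shares have no replicate check. The 280 members without the mark in MAFG cells had weak marks in GFP cells, with a median fold of 9.07 against 45.8 in the others. Anti-MITF was called in at least 2 of 3 MAFG-cell libraries at 16 of them (5.71%) and at 184 of the marked ones (9.13%).

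Most members sat at an annotated start. A gene start lay inside 1251 of them (54.5%) and inside or within 1000 bp of 1837 (80.0%), against 64.7% and 74.5% of co-bound promoters. Where a start position was in the promoter table, the anti-MITF summit lay at a median of 195 bp from it (interquartile range 112 to 304), in 62.2% of cases downstream, and within 150 bp in 36.2%, against 221 bp and 28.8% for co-bound promoters. Starts on both strands were in 21.0% of such members and 28.6% of such co-bound promoters. Only starts inside a region were counted, so the distances are bounded by its width. The median width was 1011.5 bp in members and 1623 bp in co-bound promoters, and the distances were not matched for it.

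**Figure D3:**
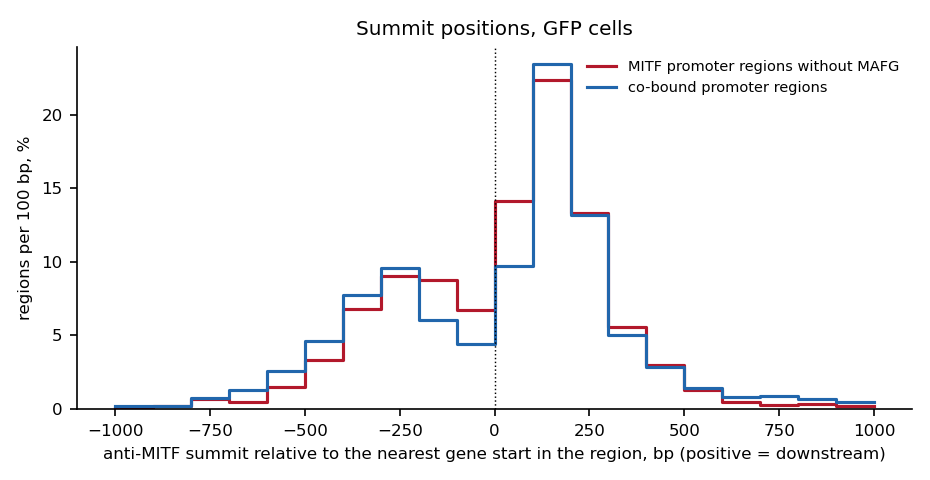
Position of the GFP-cell anti-MITF summit relative to the nearest gene start inside the region (x axis, bp, positive downstream) as the share of regions per 100 bp (y axis, %), for members and co-bound promoters. In both classes the summits were most frequent just downstream of the start and thinned beyond 500 bp, within which 93.0% of members and 86.8% of co-bound promoters lay. The distance is bounded by the width of the region, and co-bound regions were wider.

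The starts of 1271 protein-coding genes and 274 long noncoding RNA genes lay in member regions. Of the 10470 coding genes with a start in a GFP-cell H3K4me3 peak, the marked genes, 1246 had a start in a member, a background of 11.9%, and 2515 had one in a co-bound promoter, a background of 24.0%. Shares of gene lists are read against these values.

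Lysosome and autophagy genes were the list with the largest member share among 28 lists. Of 57 marked genes, 22 (38.6%) had a start in a member region and 16 (28.1%) in a co-bound promoter. Of the 44 with a start in any region called by anti-MITF in at least 2 of 3 GFP-cell libraries, 22 lay in a member, whereas over all marked coding genes so bound the share was 27.6%. By that measure mitochondrial import was higher, with 8 of 13 bound genes in members (61.5%). Vacuolar ATPase subunits, which acidify the lysosome, were near the background, with 3 of 20 marked genes in members. The members' share was 28.1% when 3 of 3 anti-MITF libraries were required, and the same value without GFP-cell anti-MITF replicate 2. The share over all marked coding genes under these rules was 7.33% and 8.36%. The lysosome and autophagy list was drawn up with earlier results on these data known. It is of the CLEAR type, genes of the kind that TFEB and TFE3 switch on through the same E-box. Its anti-MITF and E-box shares are therefore not independent of the choice of genes.

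By role, the lysosomal members covered hydrolases, traffic and autophagy. Among the hydrolases was NAGLU, which degrades heparan sulfate, with GFP-cell folds of 10.3, 10.04 and 11.4. HEXA, a hexosaminidase subunit, had 7.96, 14.4 and 9.38, and CTSA, cathepsin A, had 9.33, 9.24 and 10.9 in a region shared with NEURL2. These 3 were called in every GFP-cell anti-MITF library.

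Some hydrolase regions were missed by 1 library. GAA, acid alpha-glucosidase, had folds of 7.96 and 8.46 in replicates 1 and 2, CTSD, cathepsin D, had 7.92 and 4.59 in the same replicates, and CTSF, cathepsin F, had 7.17 and 6.89 in replicates 2 and 3. Their E-boxes are among the sequences printed above, which were picked from promoters that hold an E-box. Of the regions leading in GFP cells, KLHL22, SPNS1, LAMTOR1, BLOC1S3/TRAPPC6A and GTF2H1/HPS5 had CACGTG in a promoter. ITFG2, POLR1B, SYS1 and TIMM50 had none, and the region near NANOS3 had no promoter in the RefSeq promoter table. SGSH, sulfamidase, was called in all 3 GFP-cell anti-MITF libraries, with folds of 6.06, 7.18 and 6.74, in a region shared with the transporter gene SLC26A11.

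Autophagy genes in members included the ATG8 family, whose proteins coat the growing autophagosome. GABARAP had GFP-cell folds of 9.93, 5.45 and 8.52, MAP1LC3B had 8.45, 4.73 and 5.67, GABARAPL2 had 12.1 and 7.03 in replicates 1 and 3, and GABARAPL1 had 9.93 and 5.54 in replicates 1 and 2. UVRAG, a subunit of an autophagy lipid kinase complex, had 9.24, 7.60 and 7.07, and ATG16L1, which places ATG8 proteins on membranes, had 4.65 and 4.20 in replicates 1 and 2, near the lower edge of the class. Membrane proteins were CLN3, with 8.63, 13.7 and 9.95, and the cholesterol exporter NPC1, with 7.95, 4.23 and 8.91.

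In MAFG cells 10 of the 22 lysosomal genes (45.5%) had an anti-MITF peak in at least 2 of 3 libraries, against a background of 12.4% over the 1271 genes. They included FLCN, GABARAP, LAMTOR1, NAGLU, RRAGC, SGSH, UVRAG, VPS18 and VPS41. Lysosomal genes also ranked higher in GFP cells, with a median mean percentile of 73.2 against 43.8 for all 1271, so rank moves with this count, and its part was not tested. SGSH, at a mean percentile of 57.0 in GFP cells, had MAFG-cell folds of 12.5, 11.5 and 9.63. GAA, CTSD, CTSF, CTSA, CLN3, NPC1, GABARAPL1 and ATG16L1 had no anti-MITF peak in any MAFG-cell library.

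The next lists by member share were small. Mitochondrial import had 8 of 31 marked genes (25.8%) in members and 3 in co-bound promoters, among them TIMM50, TIMM22, a channel of the inner membrane, with 13.7, 6.30 and 7.02, and MTX3, with 8.17, 8.22 and 5.37. Cell cycle and survival targets reported for MITF had 4 of 20. Among the 13 of these bound by anti-MITF the member share was 30.8%, against 27.6% over all marked coding genes so bound. CDK4, a kinase of the G1 phase, had folds of 13.3, 13.9 and 9.84 in the GFP line and 10.2, 7.67 and 12.9 in the MAFG line. BIRC7, an apoptosis inhibitor of melanoma, had 10.9, 7.98 and 11.3 in GFP-cell and 5.67, 6.39 and 5.20 in MAFG-cell libraries. CDKN2A, the cell cycle inhibitor locus, had 8.63, 9.47 and 7.02 at one start and no peak in MAFG cells.

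Lists of housekeeping complexes were near or below the background. Vesicle coat and trafficking genes had 26 of 173 marked genes in members (15.03%), chaperones 10 of 66 (15.2%), mitochondrial ribosomal proteins 10 of 72 (13.9%), RNA polymerase and Mediator 11 of 96 (11.5%), spliceosome 6 of 60 and respiratory chain 7 of 93 (7.53%). Zinc finger genes had 26 of 344 (7.56%), cytosolic ribosomal proteins 3 of 84 (3.57%) and histones 1 of 52 (1.92%). Cytosolic ribosomal and histone genes were low in co-bound promoters as well, at 4.76% and 11.5%.

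Some lists belonged more to co-bound promoters. Centrosome and cilium genes had 0 of 70 marked genes in members and 28 (40.0%) in co-bound promoters, although the start of IFT81, of the intraflagellar transport machinery, lay in a member beside its H3K4me3 peak. DNA repair had 6 of 58 (10.3%) in members and 24 (41.4%) in co-bound promoters, kinetochore and spindle 3 of 51 (5.88%) and 16 (31.4%), and MAPK feedback 1 of 20, ETV4, and 8 (40.0%). These splits are descriptions of lists, and none was tested.

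**Figure D4:**
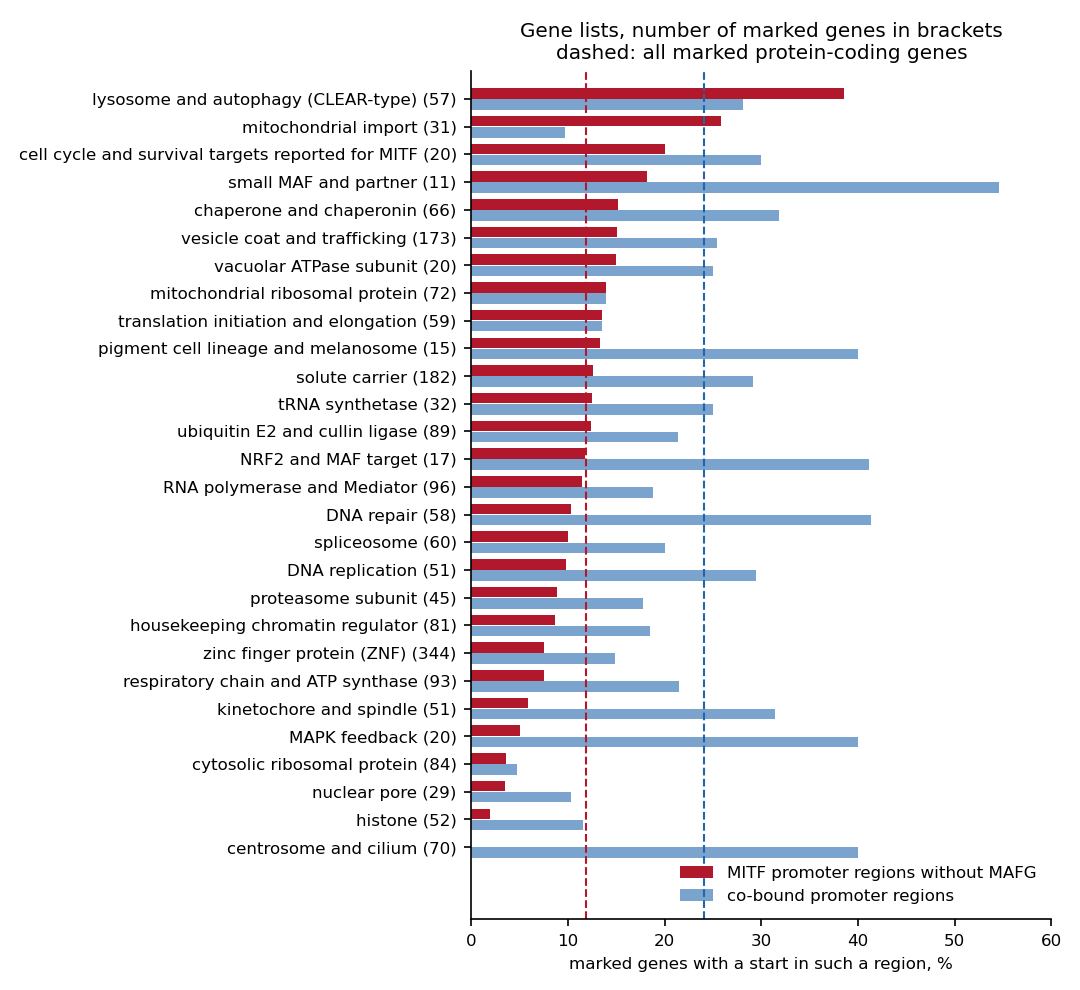
Share of marked genes of each list (x axis, %) with a start in a member region (red) or in a co-bound promoter (blue), with the number of marked genes in brackets and dashed lines at the shares over all marked coding genes (11.9 and 24.0%). Lysosome and autophagy genes stand at 38.6% for members, and centrosome and cilium genes at 0 against 40.0% for co-bound promoters.

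Among marked genes, pigment cell genes had a member share near the background, but among bound genes it was below that of all genes. Of 15 marked pigment genes 14 were bound by anti-MITF (93.3%), against 43.2% of all marked coding genes. Of the 15, 2 (13.3%) lay in members, beside the background of 11.9%, and 6 in co-bound promoters. Among the 14 bound genes the member share was 14.3%, against 27.6% over all marked coding genes so bound. The members were MLPH, melanophilin, which links melanosomes to myosin, with GFP-cell folds of 5.17, 6.18 and 5.16, and PMEL, the melanosome fibril protein, with 5.24, 3.37 and 3.65 in a region shared with CDK2. The start of MLANA lay in a member but outside its H3K4me3 peak, with folds of 6.48 and 4.73 in replicates 1 and 2. None of these 3 had an anti-MITF peak in MAFG cells, and the PMEL region had the lowest mean fold of the 3, 4.09.

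Among marked genes, NRF2 and MAF targets were in members at the background share. Of 17 marked ones, 2 (11.8%) had a start in a member and 7 in a co-bound promoter. Among the 12 bound by anti-MITF the member share was 16.7%, against 27.6% over all marked coding genes so bound. FTL, ferritin light chain, had anti-MITF folds of 7.92, 10.5 and 12.5 in GFP cells and 7.44 in 1 MAFG-cell library, and FTH1 had 7.46, 6.26 and 7.93 and none in MAFG cells. Both ferritin genes have processed copies elsewhere in the genome, and the treatment of shared reads is not given in the sources used here. The start of HMOX1, heme oxygenase, lay in a member outside its H3K4me3 peak, with 7.15, 5.86 and 5.56, an anti-MAFG peak 2677 bp away in GFP cells, and an anti-MAFG fold of 5.23 in 1 MAFG-cell library.

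The starts of MAFG and its paralogue MAFF were members themselves. MAFG had GFP-cell anti-MITF folds of 6.95, 5.86 and 5.20 with the nearest anti-MAFG peak 102126 bp away, a CACGTG in its promoter, and no anti-MITF peak in MAFG cells (chr17:81926656-81928601). MAFF had 3.97, 6.64 and 3.13 in GFP cells and 9.05 and 7.99 in MAFG-cell replicates 1 and 2 (chr22:38202453-38203576). They were 2 of 11 marked small MAF and partner genes (18.2%), and 6 others lay in co-bound promoters.

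Promoters in members were rich in the E-box. RefSeq promoter windows of GRCh38.p14, 250 bases before to 50 after the start, were searched on both strands. In 1259 windows the start itself lay in a member and in a GFP-cell H3K4me3 peak. Windows were sorted by their start, so a motif found may lie outside the region. CACGTG was in 288 of them, 22.9% (exact binomial interval 20.6 to 25.3%, counting error only). It was in 10.4% of 2665 windows in co-bound promoters, 7.85% of the 7415 other marked windows and 8.32% of all RefSeq coding promoters. With the preferred flank, TCACGTG was in 15.8, 6.90 and 3.95% of the 3 sets. A match is a description of the window and not a shown binding site.

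Other letters that MITF can read were more frequent in member windows than in other marked windows. CATGTG was in 9.05% of member windows, 6.64% of co-bound and 5.21% of other marked windows, but also in 8.96% of all RefSeq coding promoters. The M-box core TCATGTG, which overlaps it, was in 3.81, 1.61 and 0.917% of the 3 sets and in 2.32% of all promoters. The 7 other palindromes with the base composition of CACGTG and a central CG were in members at 0.854 to 1.29 times their share in co-bound windows, against 2.21 times for CACGTG. Median GC content was 68.0% in member, 64.7% in co-bound and 66.7% in other marked windows.

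Letters of other factors differed less. The small MAF core TGCTGA was in 9.93% of member, 13.1% of co-bound and 10.8% of other marked windows, and the antioxidant element TGACNNNGC in 17.6, 14.9 and 14.7%. The AP-1 site TGAGTCA was in 3.10, 3.41 and 2.21%, and the ETS site CCGGAAG in 20.7, 17.4 and 21.6%. GGGCGG, read by SP factors, was in 79.2, 71.8 and 74.1%.

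**Figure D5:**
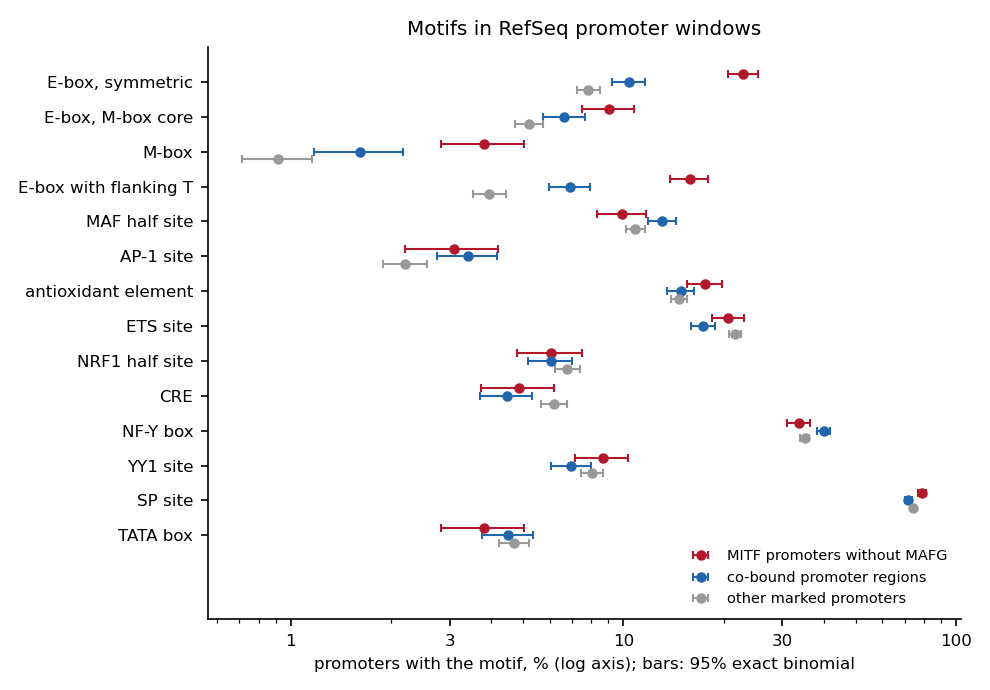
Share of RefSeq promoter windows with each motif (x axis, %, log scale, exact binomial intervals) in members, co-bound promoters and other marked promoters. The symmetric E-box stands at 22.9% in members against 10.4 and 7.85%, while the motifs outside the E-box group lie closer together.

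E-box content rose with anti-MITF rank. From the lowest to the highest rank group CACGTG was in 12.7, 12.6, 18.1, 24.8 and 37.8% of member windows, and in 6.18, 3.19, 6.05, 9.50 and 14.5% of co-bound windows. Members were above co-bound promoters in each group. Within the lysosomal list, 8 of 16 genes with a promoter in the table had CACGTG at their region, against 27.8% of 1085 member genes. As the list is of the CLEAR type, this share is tied to the choice of genes and is given as a description.

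Members with the E-box were called more often in MAFG cells. The share with an anti-MITF peak was 21.5, 20.3 and 25% in the 3 MAFG-cell libraries for 256 members with CACGTG in the promoter (22.3 ± 2.44%, SD, n = 3). For 724 members with a promoter in the table and no CACGTG it was 10.6, 8.70 and 9.53% (9.62 ± 0.970%), and the groups did not overlap. The difference was 12.6 points, and 6.45 ± 1.63 points within the same GFP-cell rank group (higher in 3 of 3 libraries, exact sign-flip tests, two-sided p = 0.25 each, the smallest that 3 libraries allow). In at least 2 of 3 libraries a peak was called at 54 of the former (21.1%) and 64 of the latter (8.84%), beside the background of 11.3% over all anti-MITF regions. Members with CACGTG also ranked higher in GFP cells, with a median mean percentile of 52.8 against 37.8 without it. Of those with it 76.6% were called in 3 of 3 GFP-cell anti-MITF libraries, against 55.0%. Rank was not matched inside a rank group, so its remaining part in the difference was not tested.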

How the data were processed

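Peak lists of 14 CUT&RUN libraries were used, 1 list per library. Each peak carries the authors' fold enrichment (a linear ratio), the −log10 of its p-value and the −log10 of its q-value, as deposited, and a score column that the authors' file derives from the −log10 q-value was not used. The submitters' processing notes name cutadapt 1.8.1, Bowtie2 2.4.1, MACS2 2.1.1.20160309, ChIPseeker 1.32.1, deepTools and the build GRCh38, with no roles, and the control used in calling is not given in the sources used here. Peaks outside chromosomes 1 to 22, X and Y (3 peaks) were left out.

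From these lists peaks were merged by overlap of at least 1 bp, and any such overlap counted as a call. Fold values served for description and ranking within a list. Gene starts came from the RefSeq promoter table of GRCh38.p14, which has 15843 of 20037 coding genes. For the other 4194 both gene ends were used, which gave 196 of the 1271 member genes. Shares per library were compared by exact permutation tests (3 against 3 libraries) or, within the same libraries, exact sign-flip tests, two-sided. Neither can pass 0.05 at this size.

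Regions named are the 10 best by mean rank in GFP-cell and in MAFG-cell anti-MITF libraries among members called in 3 of 3, members with anti-MAFG in at least 2 MAFG-cell libraries, and genes of the lists, up to 4 by rank for lists outside pigment, lysosome, MITF target, NRF2 and small MAF genes. Other gene names in lists of called genes were added after their values were seen. The members, gene lists and motifs were chosen with earlier results of these data known.

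Replicate lists shared at most 44.9% of their base pairs, so none was a repeat deposit. The region rule and motif search were tested on simulated data, where 200 of 200 planted regions and 200 of 200 planted motifs were found and 0 of 200 decoys taken. Python 3.11.15, numpy 2.4.6, pandas 2.3.3, scipy 1.17.1 and matplotlib 3.10.9 were used. Alternatives were stricter peaks, another overlap, 3 of 3 anti-MITF libraries, a wider MAFG-free window, other H3K4me3 rules, equal peak numbers, each library left out and other gene windows.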

Additional observations from a re-analysis of the deposited data

How the results depend on the processing

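The excess of anti-MITF over anti-MAFG calls at members in MAFG cells was 9.30 to 13.4 points, and the difference in anti-MAFG calls from co-bound promoters −8.60 to −6.08, as single libraries were left out, the latter −5.66 with a −log10 q of at least 5. Every setting keeps the choice of regions by anti-MITF with or without anti-MAFG, which ties their sign. The anti-MITF deficit against co-bound promoters was −4.59 to −2.51 with single libraries left out, −1.45 when 3 of 3 anti-MITF libraries were required, −0.145 with a −log10 q of at least 5, −0.0131 with equal peak numbers, and 1.36 within rank groups. The small excess over distal regions was −0.704 with a −log10 q of at least 5, −0.442 with 3 of 3 libraries, −0.209 within rank groups, and −0.216 to 1.42 with single libraries left out, the lowest without GFP-cell anti-MITF replicate 2. The causes were not tested.

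With 3 of 3 anti-MITF libraries there were 1244 members, 89.5% of them with H3K4me3 in MAFG cells and 28.3% of their promoters with CACGTG. With a −log10 q of at least 5 the CACGTG share was 25.3%. Leaving out single libraries gave 1602 to 3052 members, 87.5 to 88.4% with H3K4me3, 21.4 to 26.8% with CACGTG and 28.1 to 43.9% of the lysosomal list. Counting starts within 1000 bp gave 1912 genes and the nearest gene only gave 2076, and 1075 had a start in the promoter table. Settings for the CACGTG and lysosomal shares and the table-only count were added after the data were seen.

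With libraries of the same number paired in a replicate block, the anti-MITF excess at members was 9.63 points. The labels do not say whether libraries of the same number were handled together. Deviations of calls of same-numbered MAFG-cell anti-MITF and anti-MAFG libraries correlated at −0.00804 to −0.00638 over all merged regions. A shared culture need not show in calls of 2 antibodies at the same regions, so this cannot decide it.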

Other observations

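Members without a gene start within 1000 bp numbered 459 (20.0%), and 313 of them lay inside a coding gene. Their H3K4me3 was weaker, with a median GFP-cell fold of 28.2 against 44.4 at members with a start, and it was called in MAFG cells at 64.5% of them against 93.6%. Their anti-MITF share in MAFG cells was 8.35 ± 0.907% (SD, n = 3), beside 10.3 ± 0.928% for members with a start, a gap that was not tested.

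Members were unevenly spread over chromosomes. The share of GFP-cell H3K4me3 peaks that held a member was 26.5% on chromosome 22, 24.5% on chromosome 17 and 22.7% on chromosome 16, and 9.22% on chromosome X, 9.92% on chromosome 13 and 10.3% on chromosome 4. The copy number of these chromosomes in the line was not analysed here.

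In the 53 member windows that held both an anti-MITF summit and CACGTG, the median distance between them was 121.5 bp, and 15.1% lay within 50 bp. For GGGCGG in 219 member windows the median was 59.5 bp, with 42.5% within 50 bp. In co-bound windows the medians were 115 bp for the symmetric E-box and 80.5 bp for the letters read by SP factors. The SP letters were in 79.2% of all member windows and the E-box in 22.9%. Letters that are more frequent can lie nearer to any point by chance. The distance expected by chance was not tested, so these values do not show which letters the summits mark.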
